A study of Mus musculus with 12 samples.

Results

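Described here are 10 genes of the MHC class I pathway, which displays peptides from inside a cell to CD8+ T cells, in the retina after elevation of intraocular pressure (IOP). They were chosen by name and by role: 4 class I chains (B2m, H2-K1, H2-D1 and H2-T23), 3 genes of peptide transport and loading (Tap1, Tap2 and Tapbp) and 3 immunoproteasome subunits (Psmb8, Psmb9 and Psmb10). All 10 were above 0 in all 12 libraries, and the table as a whole has 24340 rows, 18509 of them not at 0 throughout. RNA came from both retinas of 6 mice aged 12 to 16 weeks. All mice carried p16-3MR, a transgene in which the p16 regulatory region drives Renilla luciferase, a red fluorescent protein and a viral thymidine kinase, so that ganciclovir (GCV) kills cells that use that region. One eye of each mouse was held for 60 min at an IOP of 85–90 mm Hg, with the fellow eye as control. Mice 1, 2 and 5 then received 25 mg/kg GCV daily and mice 3, 4 and 6 a sham injection, until retinas were taken on day 3. This gave 4 groups of 3 retinas: control, IOP, control with GCV and IOP with GCV. Wild-type mice given GCV are not part of the RNA-seq comparison, so an effect of GCV cannot be told apart from that of the loss of p16+ cells.

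Class I molecules are made in nearly all nucleated cells. The proteasome cuts cytosolic proteins into peptides, the TAP1–TAP2 pump carries the peptides into the endoplasmic reticulum, tapasin holds the empty class I molecule at the pump, and the heavy chain leaves for the cell surface with β2-microglobulin and a peptide. Neurons and glia of the healthy nervous system are known for low class I levels, and interferons raise most genes of the pathway together, through the IRF factors and NLRC5 among others, and replace the catalytic proteasome subunits with the immunoproteasome subunits.

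The promoters of the class I chains are shown first, since their known interferon and NF-κB elements lie close to the start site. RefSeq promoters (GRCm38.p6, 250 bases before to 50 after the start) were found for 9 of the 10 genes, without Tap2. Capitals mark the motifs named after each stretch, and positions count from the start site.
B2m: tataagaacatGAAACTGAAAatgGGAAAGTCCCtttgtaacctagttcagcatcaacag
H2-K1: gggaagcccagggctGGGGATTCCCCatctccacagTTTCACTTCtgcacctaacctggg
H2-D1: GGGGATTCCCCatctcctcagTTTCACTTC
H2-T23: atcctactgcTTTCTCTTTCataaagacac
The B2m stretch (chr2:122147537-122147596, plus strand, -150 to -91) holds an interferon-stimulated response element (ISRE) core, GAAANNGAAA, followed by a κB motif. The H2-K1 stretch (chr17:34000414-34000473, minus strand, -126 to -67) and the H2-D1 stretch (chr17:35262923-35262952, plus strand, -171 to -142) hold a κB motif and then a looser ISRE, GAANNGAAA, on the opposite strand. Over these 30 bases H2-K1 and H2-D1 match at 29. The H2-T23 stretch (chr17:36032806-36032835, minus strand, -134 to -105) holds the ISRE core on the opposite strand and no κB motif. By GENCODE all 30 bases shown for H2-D1 and for H2-T23 lie in an annotated exon of the gene itself, so that they are upstream of the RefSeq start only, while no base shown for B2m and H2-K1 is exonic. The core matches of B2m and H2-T23 did not also match the looser form. Both strands were searched. Of 27025 genes with a promoter, 3.49% held the ISRE core, 7.56% the looser form, which is 1 base shorter and was searched after the promoters had been seen, and 8.18% the κB motif. The Y box CCAAT lay in 7 of the 9 and in 37.9% of all. Neither form of the ISRE and no κB motif was found in the windows of the other 5 genes, Tap1, Tapbp, Psmb8, Psmb9 and Psmb10, which says nothing of other interferon elements there. These are letter matches in a window and were not tested as binding sites.

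Of the 10 genes, 8 lie on chromosome 17 between 33915899 and 36032855 (mm10), a stretch of 2116957 bases that covers part of the mouse MHC. Tap1 (chr17:34187553-34197225) and Psmb9 (chr17:34181987-34187764) are transcribed away from each other. These GENCODE spans overlap at their 5′ ends, while the RefSeq starts lie apart with 225 bases between them, and Psmb8 and Tap2 follow downstream of Tap1. B2m lies on chromosome 2 and Psmb10 on chromosome 8.

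The values are FPKM (fragments per kilobase of transcript, scaled to the fragments of the library), a level corrected for transcript length. Markers of rods, the commonest cells of the mouse retina, summed to 36313–65812 FPKM. Between 14844 and 16593 genes were above 0, and the depth estimated from the spacing of low values was 4010000 to 9040000 fragments. The lowest of both numbers belonged to the IOP retina of mouse 6. Among the IOP-treated retinas it also had the highest B2m and the lowest Tap1, Tap2, Tapbp, Psmb8 and Psmb10. For Tap2 and Psmb8 the margin to mouse 2 was narrow (7.184 against 7.187 FPKM and 16.39 against 16.47 FPKM). The labels do not name batches or dates. In bulk tissue, fewer cells of a type and less RNA per cell cannot be told apart.

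B2m, the light chain shared by all class I molecules, was the most abundant of the 10 in every library. It was at 82.4, 81.2 and 165 FPKM in the control retinas of mice 3, 4 and 6 and at 694, 588 and 2448 FPKM in their IOP-treated retinas. With GCV, mice 1, 2 and 5 had 97.8, 109 and 106 FPKM in the control eye and 855, 427 and 1315 FPKM in the IOP eye. All IOP values lay above all control values, with mouse 6 the highest on both sides. On the log2(FPKM + 1) scale the IOP-treated retinas were higher by 3.08 ± 0.39 (SE, 12 retinas of 6 mice, limma adjusted p = 0.00137). This fit, used for the genes below as well, does not pair the eyes of a mouse. With the mouse as a block in limma, the SE of B2m was 0.25 (adjusted p = 0.00455). Among the other genes that passed with this block, adjusted p ran from 0.00328 (Psmb8) to 0.0457 (Tapbp).

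H2-K1, a classical heavy chain that presents peptide to CD8+ T cells, was at 22.9, 24.5 and 25.5 FPKM in control retinas without GCV and at 132, 108 and 159 FPKM after IOP, in mice 3, 4 and 6. With GCV, in mice 1, 2 and 5, control eyes had 20.3, 25.9 and 24.5 FPKM and IOP eyes 223, 96.4 and 274 FPKM. The control values were close to each other and the IOP values more scattered, with no overlap. The difference over all mice was 2.64 ± 0.22 (SE) on the log2 scale (adjusted p = 0.000277).

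H2-D1, the second classical heavy chain, behaved alike. It was at 29.1, 28.2 and 36.4 FPKM in control retinas of mice 3, 4 and 6 and at 206, 130 and 222 FPKM after IOP. With GCV the controls of mice 1, 2 and 5 were at 29.5, 33.8 and 34.0 FPKM and the IOP-treated retinas at 231, 136 and 433 FPKM, so that no IOP value overlapped the controls. The log2 difference was 2.68 ± 0.25 (SE, adjusted p = 0.000392).

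H2-T23, the mouse Qa-1 chain, presents leader peptides of other class I chains to receptors on NK cells. Its levels were lower, at 2.35, 4.19 and 5.88 FPKM in the control eyes and 20.2, 13.9 and 14.4 FPKM in the IOP eyes of mice 3, 4 and 6. In mice 1, 2 and 5 the control eyes had 1.72, 4.63 and 4.30 FPKM and the IOP eyes 29.5, 17.3 and 34.6 FPKM. The groups did not overlap, and the log2 difference was 2.21 ± 0.25 (SE, adjusted p = 0.000934). The longest coding transcript was cut into all its stretches of 50 bases, the read length. Of these, 28.8% in H2-T23, 14.3% in H2-D1 and 8.79% in H2-K1 also occurred in transcripts of other genes. The gene that shared most was H2-T-ps for H2-T23, H2-Q1 for H2-D1 and H2-D1 for H2-K1. The split of reads between such genes is therefore uncertain. B2m shared none.

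The balance of light and heavy chain mRNA is given by B2m over the sum of H2-K1, H2-D1 and H2-T23. It was 1.43 to 2.44 in the 6 control libraries and 1.71 to 2.33 in 5 of the IOP-treated libraries. In the IOP retina of mouse 6 it was 6.19. The heavy chains of that retina, 396 FPKM in sum, lay inside the range of the other IOP-treated retinas (249 to 742 FPKM). Short transcripts stood higher in several IOP-treated retinas: for 587 genes under 1000 bases the median log2 difference between the eyes was 0.24 to 0.33 in mice 2, 3, 5 and 6 and -0.01 to 0.02 in mice 1 and 4. The longest B2m transcript has 860 bases. The part of transcript length in the B2m value was not tested.

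**Figure D1:**
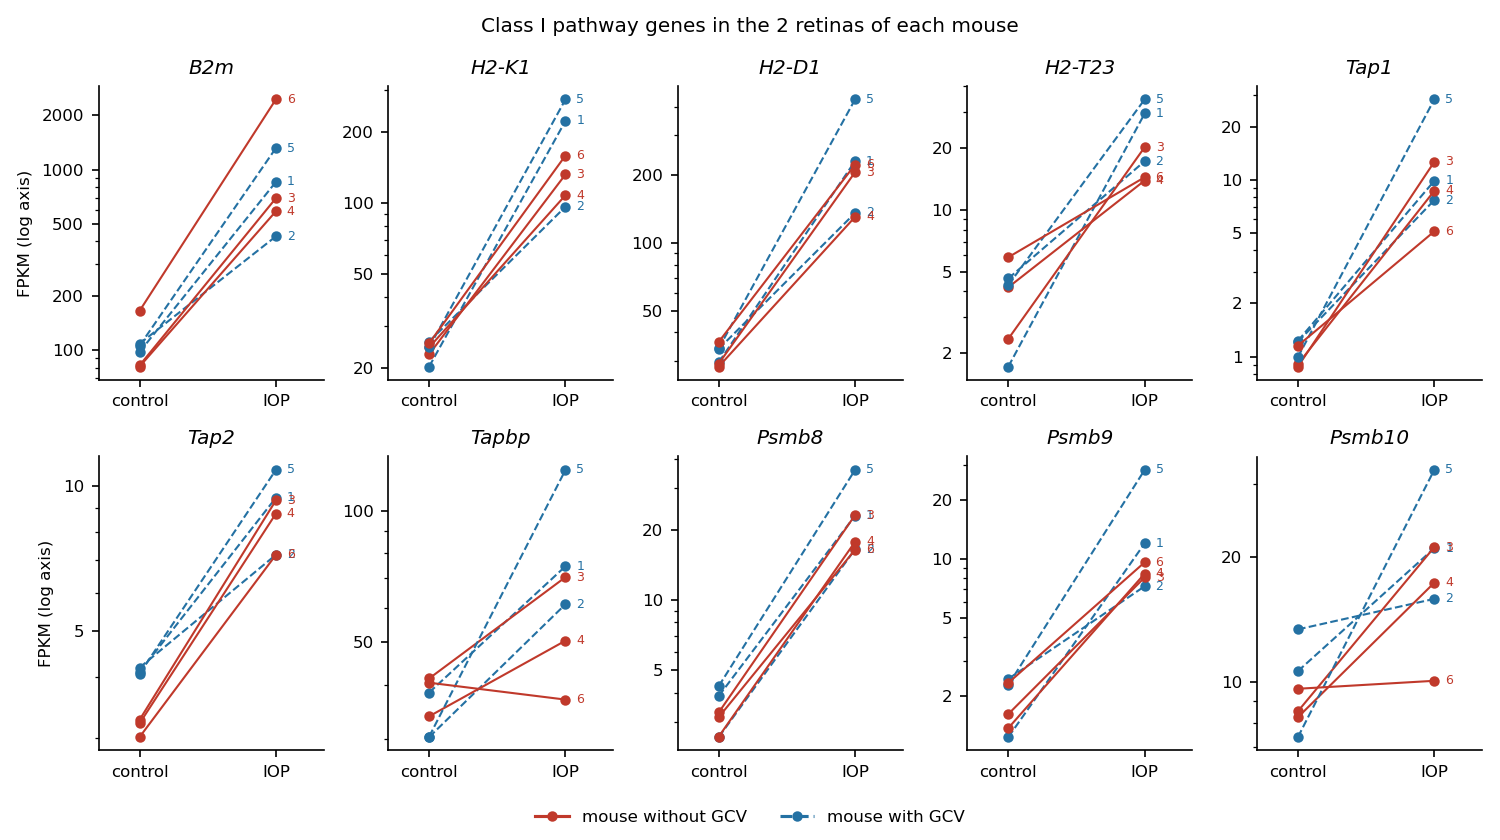
Levels of the 10 genes (FPKM, log axis, a scale for each gene) in the control and the IOP-treated retina of each mouse, joined by a line and numbered by mouse, without GCV in red and with GCV in dashed blue. The lines rise in 6 of 6 mice for 9 genes and in 5 of 6 for Tapbp, where the retina of mouse 6 went from 40.4 to 37.0 FPKM.

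Tap1, one chain of the peptide pump, was the least abundant of the 10 in 6 of 6 control retinas. It was at 0.878, 0.907 and 1.15 FPKM in the control eyes and 12.6, 8.66 and 5.11 FPKM in the IOP eyes of mice 3, 4 and 6. With GCV the control eyes of mice 1, 2 and 5 had 1.23, 1.21 and 0.994 FPKM and their IOP eyes 9.86, 7.67 and 28.5 FPKM. The groups were apart, and the log2 difference was 2.47 ± 0.30 (SE, adjusted p = 0.00106). As ratios of FPKM the rise spanned 4.43-fold in mouse 6 to 28.7-fold in mouse 5. With 0.1 added in place of 1 the log2 difference was 3.18, since the control values are low.

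Tap2, the partner chain in the same pump, rose less. Its control values were 3.27, 3.21 and 3.01 FPKM in mice 3, 4 and 6 and 4.10, 4.19 and 4.07 FPKM in mice 1, 2 and 5. Its IOP values were 9.32, 8.75 and 7.18 FPKM without GCV and 9.44, 7.19 and 10.8 FPKM with GCV. They did not overlap, and Tap2 had the smallest standard error of the 10 genes on the log2 scale, with a log2 difference of 1.07 ± 0.11 (SE, adjusted p = 0.00059).

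Tapbp, tapasin, bridges the pump and the empty class I molecule and was among the more abundant genes already in control retinas. It was at 41.3, 33.9 and 40.4 FPKM in the control eyes and 70.4, 50.4 and 37.0 FPKM in the IOP eyes of mice 3, 4 and 6. In mice 1, 2 and 5 the control eyes had 38.4, 30.4 and 30.4 FPKM and the IOP eyes 74.6, 61.1 and 124 FPKM. The groups overlapped through mouse 6, whose IOP-treated retina was 0.91 times its control. The log2 difference over all mice was 0.85 ± 0.19 (SE, adjusted p = 0.0227), and the call was lost when the control library of mouse 4, 2 or 5 was left out (adjusted p = 0.0633, 0.0605 and 0.0586).

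Psmb8, the immunoproteasome subunit LMP7 that takes the place of Psmb5, had the smallest adjusted p of the 10 genes in the comparison over all mice. It was at 3.29, 2.60 and 3.15 FPKM in the control eyes and 23.1, 17.7 and 16.4 FPKM in the IOP eyes of mice 3, 4 and 6. With GCV the control eyes of mice 1, 2 and 5 had 3.87, 2.58 and 4.27 FPKM and their IOP eyes 22.9, 16.5 and 36.0 FPKM. The groups were far apart, with a log2 difference of 2.39 ± 0.18 (SE, adjusted p = 0.000173).

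Psmb9, the subunit LMP2 that takes the place of Psmb6, was at 1.62, 1.37 and 2.33 FPKM in the control eyes and 8.03, 8.39 and 9.59 FPKM in the IOP eyes of mice 3, 4 and 6. In mice 1, 2 and 5 the control eyes had 1.23, 2.44 and 2.28 FPKM and the IOP eyes 12.0, 7.24 and 28.4 FPKM. No values overlapped, and the log2 difference was 2.07 ± 0.27 (SE, adjusted p = 0.00176). The lowest Psmb9 value stands on an estimated 11 fragments, the fewest of any of the 10 genes.

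Psmb10, the subunit MECL-1 that takes the place of Psmb7, rose least among the 3. It was at 8.53, 8.25 and 9.66 FPKM in the control eyes and 21.2, 17.4 and 10.09 FPKM in the IOP eyes of mice 3, 4 and 6. With GCV the control eyes of mice 1, 2 and 5 had 10.7, 13.4 and 7.39 FPKM and their IOP eyes 21.1, 15.9 and 32.5 FPKM. The groups overlapped only through the IOP-treated retina of mouse 6, which stayed at 1.05 times its control. That of mouse 2 was at 1.18 times its control. The log2 difference was 0.90 ± 0.22 (SE, adjusted p = 0.0286). The call, not the difference, was lost with the mouse as a block (0.90, adjusted p = 0.0758) and when any of 7 of the 12 libraries was left out (control libraries of mice 3, 4, 6, 1 and 5 and IOP libraries of mice 3 and 5), where adjusted p reached 0.0721 and, over all 12 libraries left out in turn, the difference stayed between 0.77 and 1.05.

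**Figure D2:**
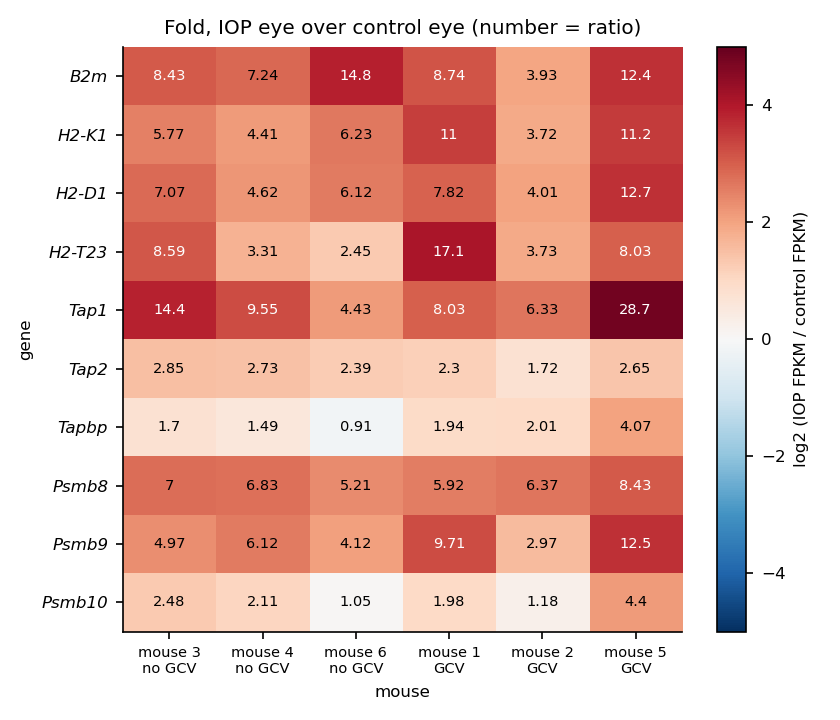
Ratio of FPKM in the IOP-treated eye to that in the control eye, for each gene (rows) and mouse (columns, mice without GCV first), with the colour on a log2 scale. Tap2, Tapbp and Psmb10 have the palest rows, and the largest ratio is 28.7 for Tap1 in mouse 5.

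Read by mouse, the median ratio of the 10 genes was 6.39, 4.51 and 4.27 in mice 3, 4 and 6 and 7.92, 3.73 and 9.82 in mice 1, 2 and 5. All 10 genes were higher in the IOP-treated eye of 5 mice and 9 of 10 in mouse 6. The 9 genes that were higher in all 6 mice compare with 10.7% of all genes tested. The highest and the lowest median both came from mice with GCV. Of the 10 genes, 8 had every IOP value above every control value (6 against 6), which was the case for 5.47% of all genes tested.

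Without GCV, 8 of the 10 genes rose after IOP (1.42% of all 18509 genes tested rose), and Tapbp (log2 difference 0.40, adjusted p = 0.427) and Psmb10 (0.76, adjusted p = 0.232) did not pass. With GCV, 9 of 10 rose (1.65% of all genes), and Psmb10 did not pass (1.05, adjusted p = 0.117). The median log2 difference of the 10 was 2.02 without GCV and 2.55 with GCV, against 0.00 over all genes in both. Over all 6 mice 10 of 10 rose (6.76% of all genes), with a median of 2.30 against 0.01 over all genes. With the mouse as a block, which pairs the eyes of each animal, the calls fell to 4 of 10 without GCV and 4 of 10 with GCV (B2m, H2-K1, H2-D1 and Psmb8 in both), where 0.389% and 0.751% of all genes rose, and to 9 of 10 over all mice (4.83%). Within 3 mice the calls also hung on single libraries: without the control library of mouse 3 or 4, 1 of 10 passed (Psmb8), and without the control library of mouse 6 or the IOP library of mouse 3, 5 passed. Without any 1 of the control libraries of mice 1, 2 and 5, 4 of 10 passed in the comparison with GCV. The comparison without GCV fell to 5 calls as well when the control library of mouse 2 or 5, which add only to the shared spread, was left out. Over all mice 8 to 10 genes passed whichever library was left out. Without the IOP retina of mouse 6, all 10 passed over all mice, with Tapbp at 0.96 (limma adjusted p = 0.0141) and Psmb10 at 1.05 (adjusted p = 0.0133). In the comparison without GCV, 6 of 10 then passed, and B2m went down from 3.26 to 2.62. There H2-T23, Psmb9, Psmb10 and Tapbp did not pass (limma adjusted p = 0.0809, 0.118, 0.143 and 0.348).

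**Figure D3:**
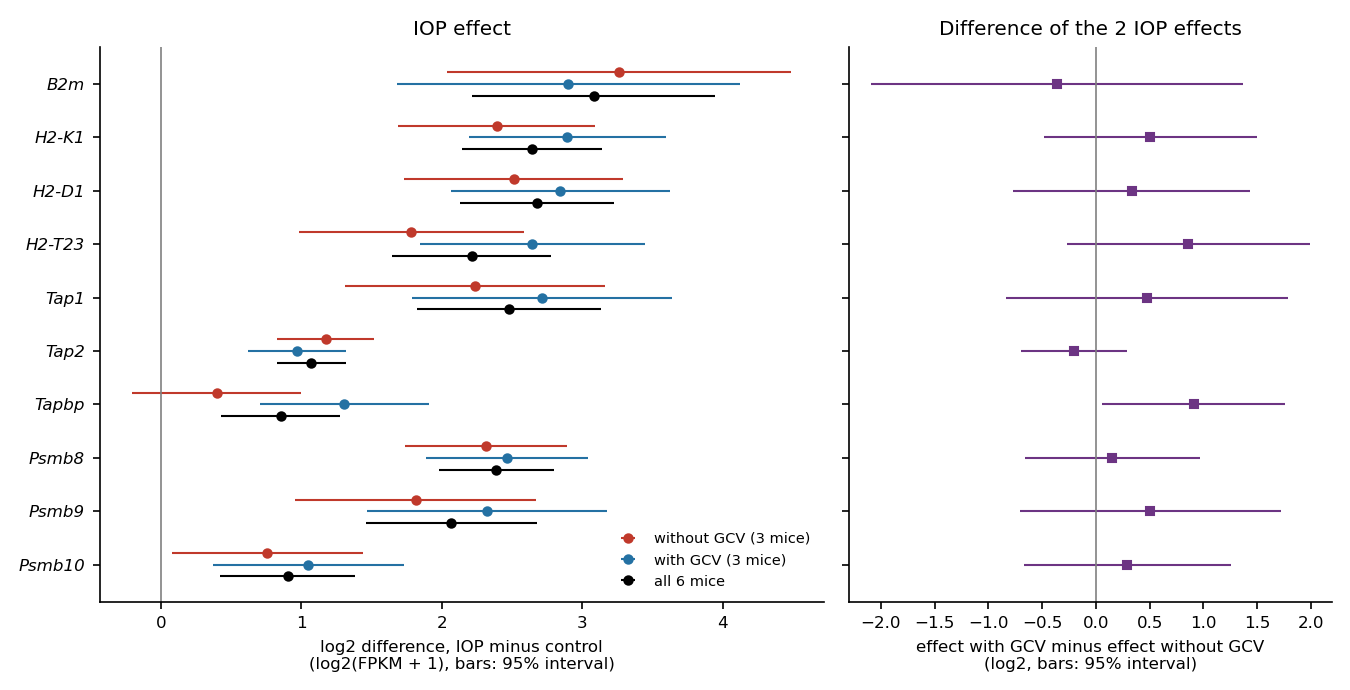
Left, log2 difference between IOP-treated and control retinas on the log2(FPKM + 1) scale, without GCV, with GCV and over all 6 mice. Right, the difference between the effects with and without GCV, all with 95% intervals. On the left 9 of the 10 intervals without GCV lie above 0 before adjustment, and on the right they run from -2.09 to 1.99 and all but that of Tapbp cover 0.

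The comparison with GCV asks if the IOP effect differs in mice given GCV, the treatment meant to remove p16+ cells. For none of the 10 genes did the effects differ (0 of 10 with limma at adjusted p under 0.05, all adjusted p = 0.997, where 0.0% of all genes passed), and 1 of 10, Tapbp, had an unadjusted p under 0.05, as had 358 of 18509 genes. The differences, effect with GCV minus effect without, ran from -0.36 in B2m (95% interval -2.09 to 1.37) to 0.91 in Tapbp (0.06 to 1.76). Their median was 0.41, and 8 of 10 were above 0, against 50.7% of all genes tested. H2-K1 gave 0.51 (-0.49 to 1.50), H2-T23 0.86 (-0.27 to 1.99) and Psmb8 0.15 (-0.66 to 0.97). Intervals of this width do not show that the effects were alike. The sign in B2m turned without the IOP retina of mouse 6 (0.29) or without the GCV-treated IOP retina of mouse 2 (0.08). The lean above 0 hung on the GCV-treated IOP retina of mouse 5. Without it, the effect with GCV lay below that without in B2m, H2-D1, Tap1, Tap2 and Psmb8. It still lay above in H2-K1, H2-T23 and Tapbp, and barely in Psmb9 (1.82 against 1.81) and Psmb10 (0.78 against 0.76).

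Within IOP-treated retinas, those with GCV against those without differed by -0.35 (B2m) to 0.69 (Tapbp), with a median of 0.47. Above 0 were 9 of 10, against 51.3% of all genes tested. The GCV-treated IOP retina of mouse 5 was the highest in every one of the 10 genes but B2m, so these differences rest in part on 1 library. No gene passed (0 of 10, adjusted p = 0.819 to 0.896, 0.0% of all genes), while Tapbp alone had an unadjusted p under 0.05, as had 774 genes of all tested. Within control retinas the differences were -0.22 (Tapbp) to 0.30 (Tap2), with a median of 0.08. There too no gene passed (0 of 10, 0.0% of all genes), and none of the 10 had an unadjusted p under 0.05, against 295 genes of all tested.

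The place of each immunoproteasome subunit against its standard counterpart can be read within a library. Psmb8 was 7.22%, 6.22% and 6.55% of the Psmb5 level in control retinas of mice 3, 4 and 6 and 38.1%, 47.1% and 64.4% after IOP. In mice 1, 2 and 5 it was 7.15%, 4.51% and 8.61% in control and 56.4%, 35.8% and 68.7% in IOP-treated retinas. The log2 ratio was higher by 2.93 ± 0.29 (SD, n = 6 mice) in the IOP eye, in 6 of 6 mice, with an exact two-sided sign-flip permutation p of 0.03125, the smallest that 6 pairs allow (0.0469 after adjustment over the 3 ratios). Psmb9 was 0.467% to 1.13% of Psmb6 in control retinas and 2.43% to 10.5% in IOP-treated retinas, a log2 difference of 2.38 ± 0.92 (SD, n = 6 mice, 6 of 6 higher, exact permutation p = 0.03125, adjusted 0.0469). Psmb10 was 6.38% to 11.4% of Psmb7 in control and 5.50% to 26.1% in IOP-treated retinas, which overlapped. Its log2 ratio differed by 0.82 ± 0.97 (SD, n = 6 mice, 5 of 6 higher, exact permutation p = 0.09375, adjusted 0.0938) and was lower by 0.67 in the IOP eye of mouse 6. The standard subunits themselves did not pass over all mice (limma adjusted p = 0.449, 0.324 and 0.465 for Psmb5, Psmb6 and Psmb7). Their log2 differences were -0.21 ± 0.17, 0.20 ± 0.12 and 0.14 ± 0.12 (SE). As a ratio of FPKM, IOP eye to control eye, Psmb5 ran from 0.53 (mouse 6) to 1.33 (mouse 3). Psmb6 ran from 0.88 (mouse 1) to 1.40 (mouse 3) and Psmb7 from 0.87 (mouse 1) to 1.67 (mouse 6). The subunit ratios of mouse 6 thus also hold shifts of Psmb5 and Psmb7.

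**Figure D4:**
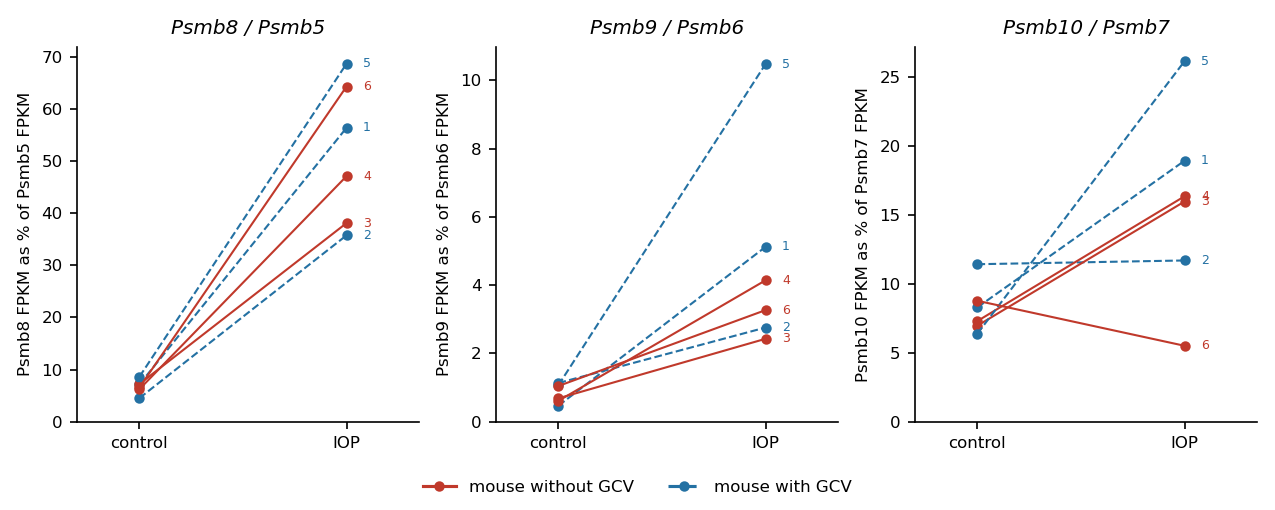
FPKM of each immunoproteasome subunit as a percentage of its standard counterpart (linear axes from 0) in the control and IOP-treated retina of each mouse, numbered by mouse, without GCV in red and with GCV in dashed blue. The IOP values of Psmb8 (35.8% to 68.7%) and of Psmb9 (2.43% to 10.5%) lie above all their control values, and those of Psmb10 overlap them.

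Of the wider pathway, 118 further genes in 9 lists were looked up and 104 were above 0 in some library. Over all 6 mice 14 rose, 1 fell and 89 did not pass, with a median log2 difference of 0.16, where 6.76% of all genes tested rose and 5.44% fell. The count without GCV was 5 higher (1.42% of all genes), and 1 with the mouse as a block (0.389%). In either direction it was 0 without the control library of mouse 3 or 4, 3 without the control library of mouse 6 or the IOP library of mouse 3, 14 without the IOP library of mouse 4 and 10 without that of mouse 5. The count with GCV was 7 higher (1.65%), and 3 with the mouse as a block (0.751%). In either direction it was 2 or 3 without the control library of mouse 1, 2 or 5 and 13 without the IOP library of mouse 2. Over all mice 15 passed in either direction, against 26 without the IOP library of mouse 4 and 11 to 19 without any other library. Of 23 other class I chains above 0, 3 rose (6.76% of all genes). The Qa-2 gene H2-Q7 went from 0.133–1.18 FPKM in control to 4.28–16.2 FPKM in IOP-treated retinas (2.39 ± 0.25 on the log2 scale, SE, adjusted p = 0.000605), and H2-Q4 from 1.82–4.95 to 9.93–26.6 FPKM (2.21 ± 0.25, adjusted p = 0.000836). H2-Q5 rose by 0.86 ± 0.21 (adjusted p = 0.0303) but was at most 2.18 FPKM in any library. H2-Q7 shares 34.9% and H2-Q4 24.3% of their 50-base stretches with other genes. By this measure the doubt on these names is larger than for H2-K1 (8.79%).

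Among 16 genes of peptide loading and trimming, 2 rose and 14 did not pass, where 6.76% of all genes rose. Tapbpl, a tapasin relative that edits peptides, rose by 0.62 ± 0.11 on the log2 scale (SE, adjusted p = 0.00792). Erap1, which trims peptides in the endoplasmic reticulum, rose by 0.54 ± 0.12 (adjusted p = 0.0203). Of 9 genes of proteasome activation and assembly 1 rose (6.76% of all genes), the PA28 activator subunit Psme1 (31.5–48.1 FPKM to 53.6–75.0 FPKM, 0.58 ± 0.09, adjusted p = 0.00516). Its partner Psme2 was at 0.853–2.19 FPKM in the control eyes and at most 2.53 FPKM in the IOP eyes and did not pass (0.35 ± 0.16, adjusted p = 0.173). None of 3 standard catalytic, 11 other 20S and 17 regulatory 19S proteasome subunits passed over all mice, with medians of 0.14, 0.17 and 0.06.

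Of 15 transcription factors of the class I genes 6 rose and none fell, where 6.76% of all genes rose and 5.44% fell. Nlrc5, the class I transactivator, was at 0.0196–0.152 FPKM in control retinas, a level that rests on few fragments, and at 1.03–4.61 FPKM after IOP (1.29 ± 0.21, adjusted p = 0.00601). Irf1, an early interferon-γ target that binds the ISRE, went from 1.5–2.36 to 4.67–20.1 FPKM (1.83 ± 0.29, adjusted p = 0.00423). Irf9, which carries the response to type I interferon to the ISRE, rose by 2.65 ± 0.26 (SE, adjusted p = 0.000417) and Stat2, its partner there, by 1.28 ± 0.17 (adjusted p = 0.00215). Of 9 interferon receptor and kinase genes 2 rose and 1 fell, against the same shares of all genes. Ifnar2 (1.34 ± 0.26, adjusted p = 0.0122) and Il10rb (1.34 ± 0.37, adjusted p = 0.0451) rose and Jak1 fell by 0.24 on the log2 scale (SE 0.06, adjusted p = 0.0243), while Ifngr1, the ligand-binding chain of the interferon-γ receptor, did not pass (0.15 ± 0.08, adjusted p = 0.238). The interferons were at or near 0. Ifng and 7 others of the 9 were listed at 0 in all 12 libraries, and Ifnb1 had a value in 1 of 12, 0.378 FPKM in an IOP-treated retina.

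**Figure D5:**
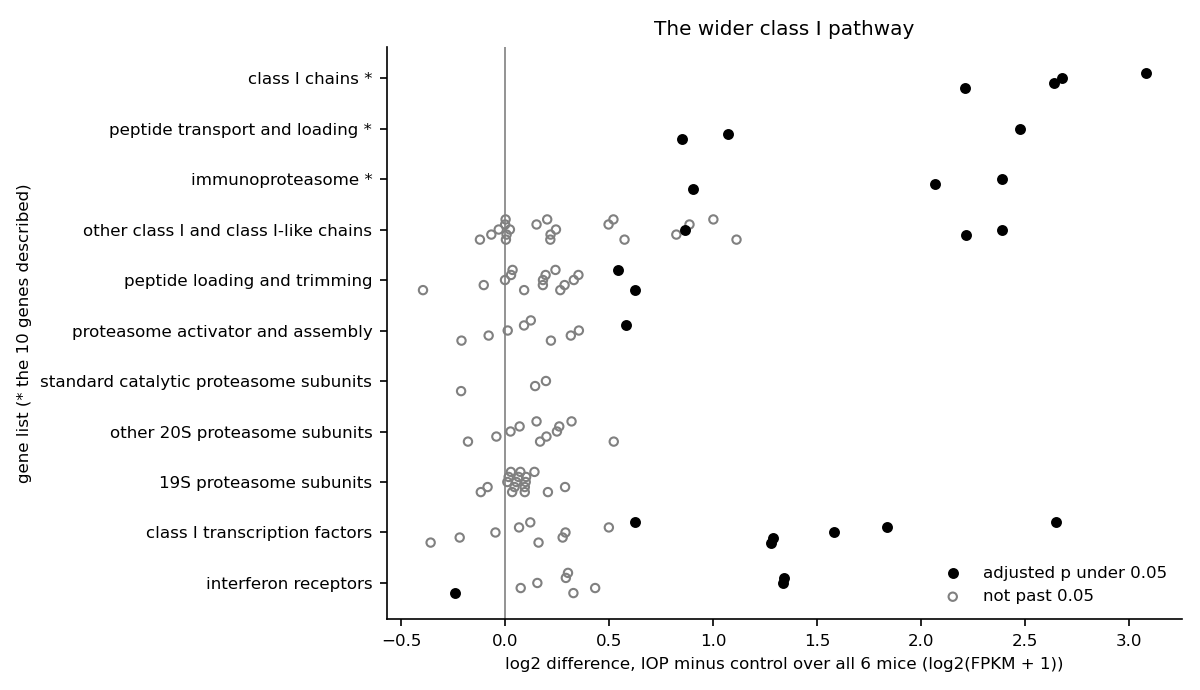
Log2 difference between IOP-treated and control retinas over all 6 mice for each gene above 0 (points, spread in height for legibility) by list, filled where the adjusted p is under 0.05. The 10 genes described, in the top 3 rows, are all filled, and the proteasome subunits of the standard, other 20S and 19S lists are all open.

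Marker RNA of immune cells, which carry much class I, also differed between the groups. Of 15 microglia and macrophage markers 13 rose (6.76% of all genes), and their sum was 85.7–140 FPKM in control, 414–926 in IOP, 103–118 in control with GCV and 356–1129 FPKM in IOP-treated retinas with GCV. The 2 that did not pass were P2ry12 (1.61–2.90 FPKM in control, 2.20–3.16 FPKM after IOP) and Tmem119 (0.740–2.24 and 1.17–3.05 FPKM). Of 15 markers of infiltrating leukocytes 9 rose (6.76% of all genes), with sums of 11.1–48.1, 329–747, 13.3–37.9 and 178–2518 FPKM in the same order of groups. The most abundant were Lyz2 and S100a8. The highest leukocyte sum was in the GCV-treated IOP retina of mouse 5, which also had the highest value of 9 of the 10 class I genes (all but B2m), and the lowest IOP sum of both lists was in mouse 2. All 5 MHC class II genes rose (median 3.72). Their part in the class I values was not tested.

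T and NK cells have receptors that read class I molecules, and their markers were near 0. Of 17 markers 16 have a row, all with a mean under 1 FPKM, and they summed to 0.498–1.52 FPKM in control and 2.04–5.17 FPKM in all IOP-treated retinas. The T cell receptor subunits Cd3d, Cd3e and Cd3g reached at most 0.211, 0.271 and 0.338 FPKM, and Cd8a 0.595 FPKM. Klrk1 and Nkg7 rose, from 0–0.0380 to 0.0812–0.497 FPKM and from 0 in all controls to 0–0.759 FPKM, and the other 14 did not pass, where 6.76% of all genes rose.

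Other tissues varied too. Over all mice 6.76% of all genes rose and 5.44% fell. Of 10 retinal ganglion cell markers 8 fell (median -1.23), of 10 rod markers none passed, and of 10 Müller glia and astrocyte markers 3 rose and 2 fell. Of 10 endothelial markers, cells that carry class I, 1 rose. Of 10 lens markers 5 rose, with sums of 69.5–131 FPKM in control, 296–5647 FPKM in IOP, 150–8792 FPKM in control with GCV and 3761–7488 FPKM in IOP with GCV. The GCV control retina of mouse 1 had the highest lens sum of all 12, and its class I genes lay at control level, with B2m at 97.8 FPKM. This is 1 library, and the part of lens RNA in the class I values was not tested. None of 10 markers of pigment epithelium, ciliary body and cornea and none of 8 blood markers passed.

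Over the 12 libraries the levels of the 10 genes ran closely together, which is a description, since the libraries fall into a low control and a high IOP cluster and share mice. H2-D1 lay nearest to the mean of the 10 (Pearson r = 0.996 on log2(FPKM + 1)) and Tapbp and Psmb10 farthest (0.853 and 0.866). Among pairs, r was highest for H2-K1 with H2-D1 (0.993) and lowest for B2m with Tapbp (0.650). Over 12910 genes that averaged 1 FPKM or more, the 10 outside the class I list whose pattern was most like that mean were Ly6e (0.990), Bst2 (0.989), Pros1 (0.987), Oas1a (0.987), Ifi30 (0.986), Ms4a6d (0.986), Slfn2 (0.985), Irf8 (0.985), Clic1 (0.985) and Pld4 (0.985). They were chosen for this pattern, so their own IOP effects are not given. Clic1 lies inside the chromosome 17 stretch, where 11 of 102 unlisted genes tested (10.8%) rose and 1 fell, against 6.76% of all genes that rose.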

How the data were processed

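RNA from 12 retinas of 6 mice was sequenced as stranded mRNA libraries with paired reads of 50 bases. The authors counted reads on exons of RefSeq genes with HOMER, and the submitters' processing notes also list TopHat2, Bowtie2, Cufflinks, Cuffdiff and build mm10, without versions. The values as deposited are FPKM. No unit comes with them, and it was inferred from the spacing of low values, which recurs with transcript length, so depth is an estimate and no counting intervals were made. Within 0.1 of a whole number of fragments lay 73.9% to 79.5% of the low values used.

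Tests used limma 3.58.1 (R 4.3.3) after a log2(FPKM + 1) transformation (4 group means over all 12 libraries, variance trend, Benjamini-Hochberg adjustment over the 18509 rows above 0, calls at 0.05). A test on counts would have been used had the table held counts. FPKM ratios were compared within mice by exact sign-flip permutation. A logarithm with 1 added understates changes of low genes. The script was tested on simulated data. The 2 eyes of a mouse pair the libraries by design, and the deviations of paired eyes from their group means correlated at -0.12 to 0.39 over 12910 genes. Retinas are separate eyes, and the mouse is the biological unit.

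The 10 genes, the lists and the tests were chosen with earlier results of these data known. All 10 genes are described. Of other pathway lists, named genes are the called ones, at most the 3 with the smallest adjusted p over all mice, plus Psmb5, Psmb6, Psmb7, Nlrc5, Irf1, Psme1, Psme2, Erap1, Tapbpl, Ifng, Ifnb1 and Ifngr1, and 1 gene that this rule names and 1 motif searched are not reported here. Single cell type markers beyond the 2 most abundant were named after their values had been seen. Positions are from GENCODE (GRCm38, the same as mm10) and promoters from RefSeq (GRCm38.p6). Alternatives were another pseudocount, a filter on low values, other scalings and spread models, the mouse block and each library left out.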

Additional observations from a re-analysis of the deposited data

How the results depend on the processing

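Calls within 3 mice are fragile. For the 10 genes in the 3 IOP comparisons, no log2 difference changed direction under any alternative. Sizes moved by over 1.5 times as a fold in Tap1 with a pseudocount of 0.1 (2.96 without GCV, 3.39 with GCV and 3.18 over all mice) and in B2m without GCV when the IOP library of mouse 6 was left out (2.62), and in no other of these genes and comparisons. The counts of calls among the 10 under a pseudocount of 0.1, and those of both lists under a minimum of 1 FPKM in 3 libraries, median-ratio scaling, quantile normalization and no variance trend stayed within 1.5 times. With the eyes paired by a replicate block, 4 of the 10 genes passed without GCV and 4 with GCV, and 1 and 3 genes of the wider pathway, while no other count moved by that much under the pairing. Fitting the 2 groups with GCV alone left 5 of the 10 genes and 1 wider gene. Library weights gave 3 wider genes without GCV and 20 with GCV, a pseudocount of 0.1 gave 8 without GCV, and an adjusted p under 0.1 gave 11 without GCV and 25 over all mice. Leaving out 1 library gave 1 to 8 of the 10 genes without GCV, 4 to 9 with GCV and 8 to 10 over all mice, and 0 to 14, 2 to 13 and 11 to 26 wider genes. The difference of effects in B2m ran from -0.74 to 0.29 when 1 library was left out, and turned positive without the IOP library of mouse 6 (0.29) or mouse 2 (0.08). Leaving out 1 mouse left a log2 difference of 2.86 to 3.04 for Psmb8 to Psmb5 and 2.16 to 2.60 for Psmb9 to Psmb6, at an exact permutation p of 0.0625, the smallest that 5 pairs allow. In the 3 mice without GCV they were 2.87 and 2.08 and in the 3 with GCV 2.99 and 2.68, where the smallest exact permutation p is 0.25. The fewest estimated fragments behind a member's value are 11 (Psmb9), 17 (H2-T23) and 19 (Tap1), which limits the control values of these genes.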
